A study of Mus musculus with 6 samples.

Results

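Expression of 9 genes that make, clear, bind or sense retinoic acid was examined in mesangial cells taken in primary culture from mouse kidney, which surround and support the glomerular capillaries. The genes were 3 retinaldehyde dehydrogenases (Aldh1a1, Aldh1a2, Aldh1a3), 2 retinoic acid hydroxylases (Cyp26a1, Cyp26b1), 2 cellular retinoic acid binding proteins (Crabp1, Crabp2) and 2 nuclear receptors (Rara, Rarb). All 9 were found by gene symbol, among 19642 symbols in the table. They were named with the values of these libraries in view, for the comparison of Control with TGF-β1, so their differences are given as a description and carry no test. RNA-Seq had been run on 3 Control libraries and on 3 libraries of cells that received TGF-β1 (transforming growth factor beta 1, a cytokine known for inducing extracellular matrix) at 10 ng/ml for 72 h. Cells of both groups were of low passage and were grown with 25.5 mM glucose and 20% serum, so the Control cells were also in high glucose. The labels do not say what the Control cells received in place of TGF-β1, nor whether the 3 libraries of a group came from separate cultures, and p-values then measure only the spread between these libraries.

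Retinoic acid is the active form of vitamin A. Retinol dehydrogenases turn retinol into retinaldehyde, the ALDH1A enzymes oxidise retinaldehyde to retinoic acid, and the CYP26 enzymes hydroxylate retinoic acid so that it can be removed. Inside the cell the CRABP proteins carry it, and it acts by binding RAR receptors, which pair with RXR receptors on direct repeats in DNA. In the kidney the pathway is best known for its part in the branching of the developing collecting ducts and in podocyte differentiation.

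Values are FPKM, fragments scaled for transcript length and for the number of mapped fragments, and levels of different genes can be compared on that scale. Mapped depth, recovered from the steps in low values, was 10130000 to 11050000 fragments per library. Markers of the labelled cell type gave a divided answer. The 7 mesangial markers summed to 1406 to 1705 FPKM in Control and to 5284 to 6213 FPKM with TGF-β1, nearly all of it Acta2 and Tagln. Pdgfrb, which encodes a platelet-derived growth factor receptor of mesangial cells and pericytes, was also present in all 6 libraries. It was lower with TGF-β1, at 28.4 to 29.9 FPKM against 32.0 to 41.1 FPKM in Control. Itga8, Thy1 and Des, which also mark mesangial cells, were at most 0.174, 0.180 and 0.550 FPKM. The 5 measured tubule markers summed to 125 to 160 FPKM in Control and to 6.16 to 7.40 FPKM with TGF-β1, nearly all of it Cdh16. Aqp1 was at 9.06 to 12.2 FPKM in Control and 0.0761 to 0.244 FPKM with TGF-β1, while Cdh1 and Aqp2 were near 0. The 5 macrophage markers summed to 87.0 to 114 FPKM in Control and to 9.03 to 11.3 FPKM with TGF-β1, most of it Cd14. The fall was not uniform, because not all of the 3 macrophage markers with a mean of at least 1 FPKM were separated between the groups. Csf1r, the growth factor receptor of the macrophage lineage, was at 5.52 to 7.37 FPKM in Control and 0.234 to 0.525 FPKM with TGF-β1, while the leukocyte gene Ptprc was at most 0.0448 FPKM. The 6 podocyte markers summed to 27.8 to 32.2 FPKM in Control and to 15.0 to 15.6 FPKM with TGF-β1, with the defining gene Nphs1 at most at 0.398 FPKM. The 5 endothelial markers together stayed under 0.823 FPKM. The part of these markers in the differences below was not tested, and fewer cells of a type cannot be told apart from less RNA per cell.

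TGF-β1-treated cells differed from Control cells in the levels of most of these 9 genes. Aldh1a3, Crabp2, Rarb, Aldh1a2 and Cyp26a1 were higher in every treated library than in any Control library, Aldh1a1 and Cyp26b1 were lower in every one, and the groups overlapped for Rara and Crabp1. The groups thus did not overlap in 7 of 9 genes, 5 of them higher and 2 lower. Of all 19730 rows 44.1% did not overlap, 20.5% higher and 23.6% lower, and of the 11898 rows with a mean of at least 1 FPKM 59.4% did not, 29.9% higher and 29.5% lower. In the fit across rows with a mean of at least 1 FPKM, 7 of the 9 genes entered and 6 passed an adjusted p of 0.05, 4 upwards and 2 downwards. Of all 11898 rows in that fit 48.1% passed, 24.5% upwards and 23.6% downwards. Nothing is read from the count, because the genes were chosen on this comparison and because Aldh1a3 entered only through its treated libraries and Cyp26b1 only through its Control libraries. Cyp26a1 and Crabp1 lay under the minimum, and their differences come from a fit without it.

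**Figure D1:**
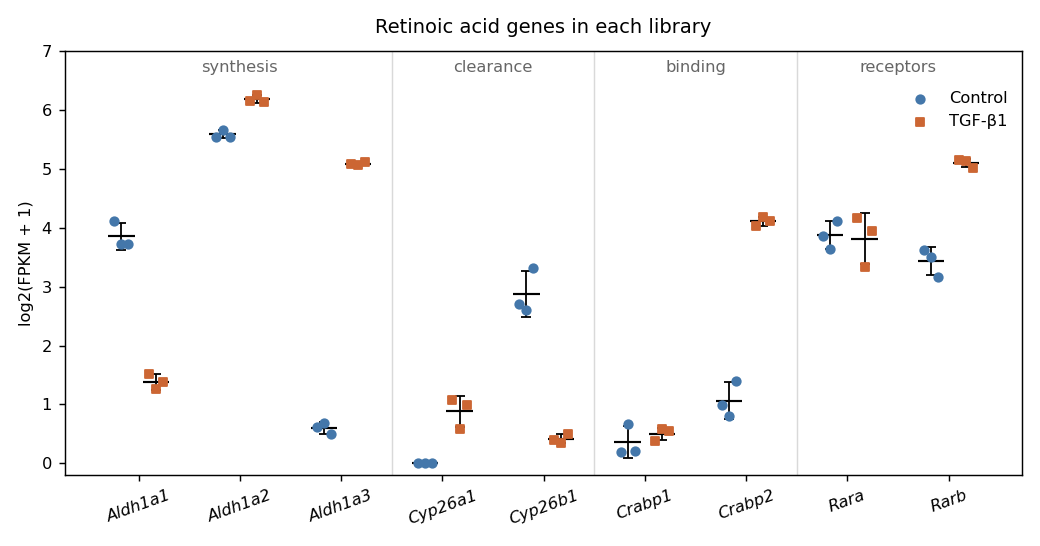
Level of each of the 9 genes as log2(FPKM + 1) in the 3 Control (circles) and 3 TGF-β1 (squares) libraries, with the group mean and SD as bars. Aldh1a3 moves from the bottom of the scale to a mean of 33.1 FPKM, level with Rarb at 33.3 FPKM, while the treated libraries of Aldh1a1 and Cyp26b1 lie below 2 FPKM and the points of Rara and Crabp1 overlap.

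Of the synthesis enzymes, Aldh1a2 (also called RALDH2, the main retinoic acid producing enzyme of the embryo) had the highest level of the 9 genes in both groups. It read 45.7, 49.8 and 45.8 FPKM in Control replicates 1 to 3, and 70.2, 75.9 and 69.2 FPKM in TGF-β1 replicates 1 to 3. The lowest treated library was well above the highest Control library, and the means of 47.1 ± 2.36 and 71.7 ± 3.60 FPKM (SD, n = 3) differed 1.52-fold, a difference of 0.60 (SE 0.0776) on the log2(FPKM + 1) scale. Aldh1a2 (transcript ENSMUST00000034723, mm9 chr9:71063596-71144050, + strand) has a single annotated transcript. Its values correspond to 1020 to 1136 fragments per Control library and 1546 to 1589 per treated library.

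Aldh1a3 (RALDH3, known from the developing eye and nasal region) had the largest difference of the 9. Its Control libraries read 0.537, 0.605 and 0.406 FPKM and its treated libraries 33.1, 32.4 and 33.8 FPKM. Treated replicates lay within a narrow band, far above every Control library. The means of 0.516 ± 0.101 and 33.1 ± 0.701 FPKM differed 64.2-fold. On the log2(FPKM + 1) scale, which understates changes of low genes, the difference was 4.49 (SE 0.0877), larger in size than that of 99.6% of the rows in the fit. With a pseudocount of 0.1 in place of 1 it was 5.77. Aldh1a3 (ENSMUST00000015278, mm9 chr7:73535778-73572403, − strand) has 5 annotated transcripts, and whether the row holds the gene or only the transcript named is not stated.

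Aldh1a1 (RALDH1, the retinaldehyde dehydrogenase of many adult epithelia) went the other way. It read 16.3, 12.3 and 12.2 FPKM in Control and 1.87, 1.39 and 1.59 FPKM with TGF-β1, so that Control replicate 1 was the highest and all treated libraries were under 2 FPKM. The means of 13.6 ± 2.38 and 1.62 ± 0.242 FPKM were 8.40-fold apart, with a log2 difference of -2.47 (SE 0.143). These values correspond to 243 to 334 fragments per Control library and 26 to 38 per treated library. Aldh1a1 (ENSMUST00000087638, mm9 chr19:20676451-20717952, + strand) lies beside the closely related Aldh1a7 (chr19:20767443-20802052, − strand), and reads that fit both genes could have been divided between them. Aldh1a7 was the lower of the pair throughout, with Control libraries between 0.497 and 0.823 FPKM and no treated library above 0.195 FPKM. The tubule marker sum given above was likewise lower with TGF-β1, and its part in the Aldh1a1 difference was not tested.

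The 3 enzymes together summed to 61.2 ± 2.44 FPKM in Control and 106 ± 2.78 FPKM with TGF-β1. Their make-up differed more than their total. Aldh1a1 made up 22.2 ± 3.47% of the sum in Control and 1.52 ± 0.257% with TGF-β1, whereas Aldh1a3 made up 0.840 ± 0.136% and 31.1 ± 1.41%. Aldh1a2 remained the largest component in all 6 libraries, at 73.0 to 79.5% in Control and 66.1 to 69.2% with TGF-β1. Aldh8a1, another aldehyde dehydrogenase that can act on retinaldehyde, was at most 0.132 FPKM in any library.

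**Figure D2:**
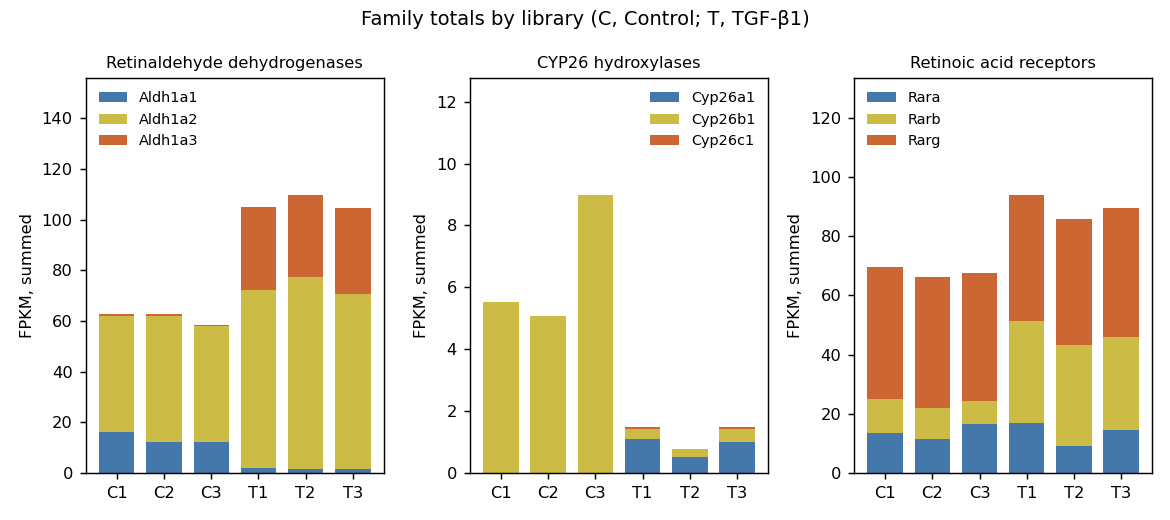
Stacked FPKM of the 3 ALDH1A enzymes, the 3 CYP26 hydroxylases and the 3 retinoic acid receptors in each library (C, Control; T, TGF-β1; the vertical scales differ between panels). The ALDH1A total is higher with TGF-β1 (106 against 61.2 FPKM) with Aldh1a3 added to Aldh1a2, the CYP26 total is lower (1.25 against 6.52 FPKM), and the receptor bars differ mainly in Rarb.

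On the clearance side, Cyp26b1, the hydroxylase known for keeping retinoic acid low in limb bud and testis, was the one hydroxylase detected in Control. It read 5.54, 5.06 and 8.98 FPKM in the Control libraries and 0.323, 0.274 and 0.420 FPKM in the treated libraries. Control replicate 3 stood above the other Control libraries, and every treated library was below all of them. The means of 6.52 ± 2.14 and 0.339 ± 0.0743 FPKM were 19.2-fold apart, with a log2 difference of -2.46 (SE 0.205) that was -3.88 with a pseudocount of 0.1. The gene (ENSMUST00000077705, mm9 chr6:84521938-84543740, − strand) has 2 annotated transcripts.

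Cyp26a1, the hydroxylase that retinoic acid itself induces most strongly in many cell types, was listed at 0 in all 3 Control libraries. In the treated libraries it read 1.10, 0.503 and 0.997 FPKM. At its length these correspond to 19, 8 and 17 fragments, and a count of 0 allows up to 3 fragments, or 0.173 to 0.177 FPKM, in a Control library. All 3 treated libraries were thus above the level that 0 allows in Control, with TGF-β1 replicate 2 the lowest of them. No fold is given against a group listed at 0. The log2 difference of 0.89 (SE 0.133) depends on the pseudocount and was 3.21 with 0.1. Cyp26a1 (ENSMUST00000025946, mm9 chr19:37772298-37776018, + strand) lies next to Cyp26c1 (chr19:37760071-37767888), which had at most 1 fragment in any library.

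The sum of the 3 hydroxylases was 6.52 ± 2.14 FPKM in Control, all of it Cyp26b1, and 1.25 ± 0.406 FPKM with TGF-β1. In treated cells Cyp26a1 made up 68.8 ± 4.92% of that smaller sum and Cyp26b1 28.5 ± 6.78%. The treated hydroxylase values rest on few fragments (11 to 18 per library for Cyp26b1).

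The binding proteins divided into one that differed and one that was barely detected. Crabp2, which hands retinoic acid to the receptors in the nucleus, read 0.980, 0.739 and 1.65 FPKM in Control and 15.3, 17.2 and 16.3 FPKM with TGF-β1. The treated libraries were close together and far above Control, where replicate 3 was the highest. The means of 1.12 ± 0.471 and 16.3 ± 0.966 FPKM differed 14.5-fold, with a log2 difference of 3.05 (SE 0.167) on the +1 scale and 3.81 with a pseudocount of 0.1. Crabp2 lies at mm9 chr3:87752588-87757298, + strand (ENSMUST00000005019). Crabp1 (ENSMUST00000034830, mm9 chr9:54612555-54620917, + strand), the form thought to hold retinoic acid in the cytoplasm, read 0.148, 0.598 and 0.154 FPKM in Control and 0.302, 0.494 and 0.459 FPKM with TGF-β1. Those values correspond to 1, 4 and 1 fragments and to 2, 3 and 3 fragments. The groups overlapped, and a difference in Crabp1 was not detectable at this depth (log2 difference 0.14, SE 0.147).

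Of the receptors, Rarb was higher with TGF-β1 and Rara was not separated. Rarb, the receptor that is itself a classical retinoic acid target, read 11.4, 10.3 and 7.97 FPKM in Control and 34.4, 34.1 and 31.5 FPKM with TGF-β1. Every treated library was well above every Control library, and the means of 9.88 ± 1.73 and 33.3 ± 1.58 FPKM differed 3.38-fold (log2 difference 1.67, SE 0.131). Rara (ENSMUST00000107474, mm9 chr11:98789132-98836256, + strand), the most widely expressed of the receptors, read 13.5, 11.5 and 16.4 FPKM in Control and 16.9, 9.05 and 14.5 FPKM with TGF-β1. Replicate 2 was the lowest library in both groups. The log2 difference of Rara was -0.06 (SE 0.237), and it had the opposite sign without TGF-β1 replicate 2 (0.18), without Control replicate 3 (0.06) and in replicates 1 and 3 alone (0.07). Rara has 8 annotated transcripts and overlaps a U6 gene on the same strand.

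Retinoic acid receptors bind direct repeats spaced by 5 bases (DR5) or 2 bases (DR2), and the start-site windows of Rarb and Cyp26a1, which were both higher with TGF-β1, hold a DR5 repeat. RefSeq promoter windows of build GRCm38.p6, from 250 bases before to 50 after a start, were found for 7 of the 9 genes (11 windows). Aldh1a3 and Crabp2 had none. Both strands were searched for the DR5 and DR2 forms of the retinoic acid response element, with either purine at the first base and G or T at the third base of each repeat. The stretches around the 2 matches are shown because they are the parts of these genes that the receptor family is known to bind, with the 2 repeats in capitals:
Rarb: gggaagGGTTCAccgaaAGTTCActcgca
Cyp26a1: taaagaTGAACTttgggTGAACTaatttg
The Rarb stretch (GRCm38.p6 chr14:16575507-16575535, − strand) has its repeat at bases -53 to -37 from the RefSeq start, and in Cyp26a1 (chr19:37697770-37697798, + strand) the repeat is read from the opposite strand at bases -32 to -16. A DR5 match occurred in 32 of 32851 windows, 0.0974%, or in 31 of 27025 genes, 0.115%. A DR2 match occurred in 0.311% of genes and in none of the 7 genes with a window. Windows were also found for 47 other pathway genes, and 0 of them held either repeat. With matches in 0.115% and 0.311% of all genes, few or none would be found in so short a list. Repeats outside the windows or of another form were not searched, so the 0 does not show that these genes lack response elements. These matches are descriptions of the letters, not of binding.

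In mm9 each stretch matched its gene at 1 place. That of Cyp26a1 ends 10 bases before the start of the transcript named in the table. That of Rarb, at chr14:17408021-17408049, lies 35 to 63 bases before the start of the shorter transcript Rarb-202. The transcript that the table names for Rarb (ENSMUST00000037779, gene span chr14:17263356-17651381, − strand) starts at another promoter, and the printed stretch lies 243332 to 243360 bases downstream of that start. Since it is not stated whether a row covers a gene or a transcript, the Rarb values cannot be assigned to either promoter.

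Levels also changed order. In Control the order from the top was Aldh1a2, Rara, Aldh1a1, Rarb, Cyp26b1, Crabp2, Aldh1a3, Crabp1 and Cyp26a1, where Rara and Aldh1a1, Rarb and Cyp26b1, and Aldh1a3 and Crabp1 were neighbours whose libraries overlapped. With TGF-β1 it was Aldh1a2, Rarb, Aldh1a3, Crabp2, Rara, Aldh1a1, Cyp26a1, Crabp1 and Cyp26b1, and the libraries overlapped between Rarb and Aldh1a3, Crabp2 and Rara, and Crabp1 and Cyp26b1. Aldh1a3 thus went from place 7 to place 3, and Cyp26b1 from place 5 to place 9.

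**Figure D3:**
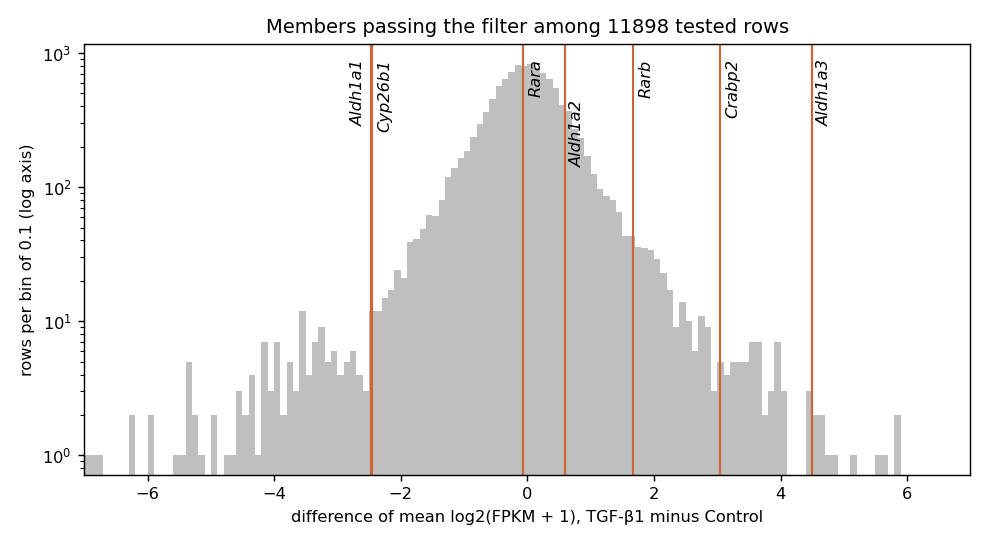
Differences in mean log2(FPKM + 1), TGF-β1 minus Control, of the 7 genes that passed the minimum (lines) against all 11898 rows in the fit (histogram, log count axis, 15 rows beyond ±7 not drawn). Aldh1a3 at 4.49, Crabp2 at 3.05, Cyp26b1 at -2.46 and Aldh1a1 at -2.47 lie in the tails, and Rara at -0.06 lies in the centre.

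Against all rows, the absolute difference was larger than in 99.6% of rows for Aldh1a3, 98.5% for Crabp2, 97.9% for Aldh1a1, 97.8% for Cyp26b1 and 94.6% for Rarb. It was larger than in 66.4% for Aldh1a2 and in 8.47% for Rara. The median absolute difference of all rows was 0.40. Among tested rows, those whose profile over the 6 libraries was closest to Aldh1a2 were Gnb2l1, Nedd1 and Capn2, with root mean square distances of 0.0189, 0.0264 and 0.0303 on the centred log2 scale. The rows closest to Aldh1a3 were Olfm2, C1qtnf3 and Postn, at 0.0930, 0.215 and 0.218. Postn, a matrix protein of fibrous tissue, read 7.30 to 10.8 FPKM in Control and 229 to 258 FPKM with TGF-β1, and Olfm2, a secreted olfactomedin, read 27.3 to 29.5 FPKM with TGF-β1 and no more than 0.222 FPKM in Control.

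The rest of the pathway was read off the same fit, from 67 genes listed for their roles, of which 56 have a row and 40 entered the fit. The lists were drawn up with earlier results of these data known. Their counts, shares and medians are therefore given as a description, and nothing is concluded from them. Of these 40 genes 8 rose, 18 fell and 14 did not pass, with a median log2 change of -0.28 against -0.02 over all rows. The share that passed, 65.0%, stands beside 48.1% of all rows. Without TGF-β1 replicate 3 the number that passed was 17 in place of 26, and without TGF-β1 replicate 1 or 3 the number that fell was 11 in place of 18.

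Both tested RXR genes, whose products partner the RAR receptors on DNA, fell. Rxra dropped from 12.1, 15.4 and 14.2 FPKM to 6.35, 5.58 and 6.21 FPKM, and no library of one group reached the other. Its log2 change was -1.08 (SE 0.110, limma adjusted p 4.99e-04), in a row that names a short transcript of 6. Rxrb fell from 19.8, 17.8 and 19.7 FPKM to 15.0, 13.3 and 15.1 FPKM, a smaller change of -0.38 (limma adjusted p 0.0130). Rarg, the third retinoic acid receptor, was not among the 9 genes, although at 43.1 to 44.7 FPKM in Control it exceeded both Rara and Rarb. It read 42.7, 42.7 and 43.4 FPKM with TGF-β1, and the groups overlapped (change -0.04, 95% interval -0.19 to 0.12, limma adjusted p 0.666). Ppard, a nuclear receptor that retinoic acid can reach through FABP5, did not pass either (0.04, 95% interval -0.32 to 0.41, limma adjusted p 0.830). Rarg made up 65.1 ± 1.74% of the RAR sum in Control and 47.9 ± 2.21% with TGF-β1, Rarb 14.6 ± 2.41% and 37.2 ± 2.30%, and Rara 20.4 ± 3.57% and 14.9 ± 3.88%.

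**Figure D4:**
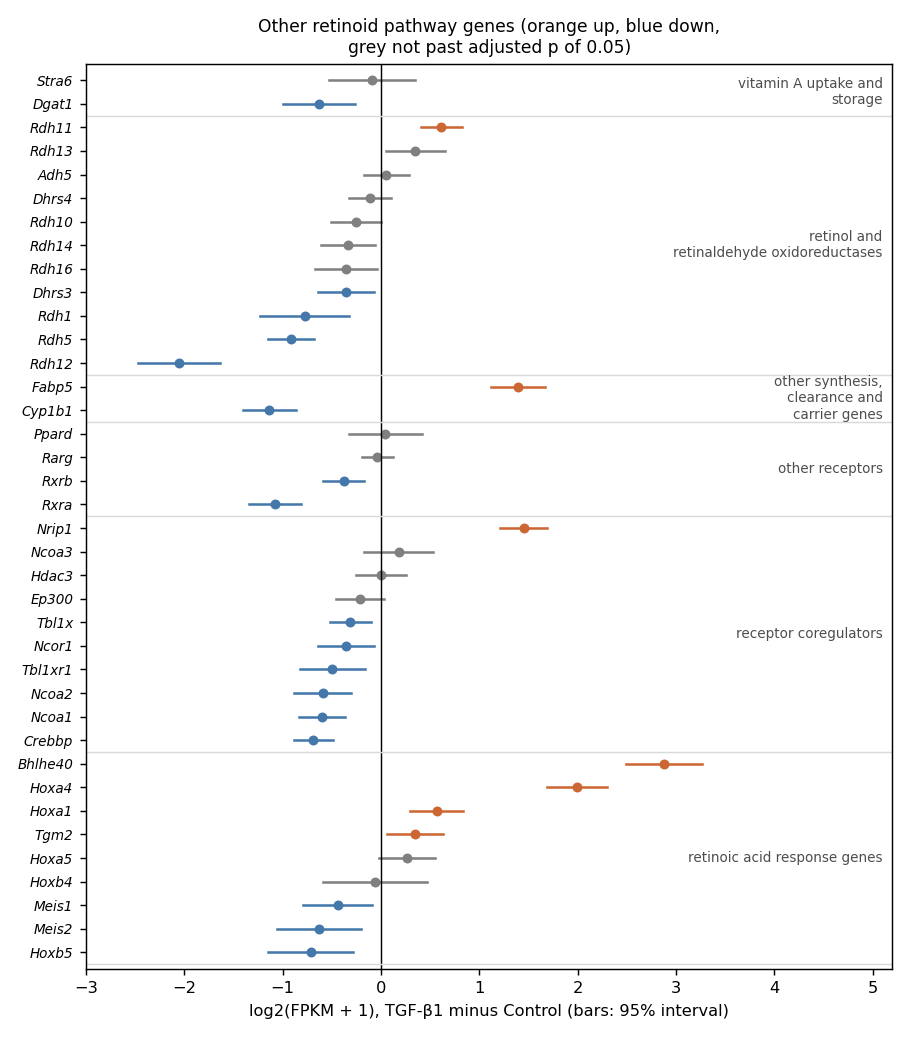
Change of 38 of the other pathway genes in the fit, TGF-β1 minus Control on the log2(FPKM + 1) scale, with 95% limma intervals and each gene drawn once under its first list. More points lie left of zero (17 fell, 7 rose, 14 in grey did not pass), with Bhlhe40 at 2.88 the farthest to the right and Rdh12 at -2.06 the farthest to the left.

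Of 11 tested enzymes that interconvert retinol and retinaldehyde, 1 rose, 4 fell and 6 did not pass (median -0.34). The share that passed, 45.5%, was near the 48.1% of all rows, and 1 of the falls, that of Dhrs3 (-0.36, limma adjusted p 0.0477), was lost under 6 of 16 alternatives (adjusted p 0.0121 to 0.141), among them the fits without Control replicate 1 or 2 or without TGF-β1 replicate 1 or 3. Rdh12, which reduces retinaldehyde in photoreceptors, read 6.59, 5.33 and 8.70 FPKM in Control and 0.861, 0.972 and 0.767 FPKM with TGF-β1. That was the largest fall of the list, at -2.06 (SE 0.171, limma adjusted p 2.32e-04). Rdh5, the 11-cis-retinol dehydrogenase of the retinal pigment epithelium, fell from 257 ± 15.0 to 136 ± 12.1 FPKM (-0.92, limma adjusted p 5.86e-04). Rdh1 fell from 1.82 ± 0.543 to 0.632 ± 0.164 FPKM (-0.77, limma adjusted p 0.0158), a call not kept in replicates 1 and 3 alone (adjusted p 0.0984, over all alternatives 0.00486 to 0.0984). Rdh11, which reduces retinaldehyde and is a known sterol-responsive gene, rose from 14.9 ± 0.486 to 23.3 ± 1.95 FPKM (0.61, limma adjusted p 0.00190). Adh5, an alcohol dehydrogenase of all tissues, did not pass at 67.6 ± 6.87 and 70.0 ± 2.29 FPKM. Rdh12 and Rdh1 reached the minimum of 1 FPKM only through their Control libraries. In the fit without a minimum both passed as well, with limma adjusted p-values of 5.74e-04 for Rdh12 and 0.0203 for Rdh1. Rdh5 overlaps Bloc1s1 and Rdh1 overlaps Rdh9, so their values are uncertain to that extent.

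Among uptake and storage genes 3 were tested, of which 2 fell and none rose (median -0.46). Dgat1, which can esterify retinol besides making triglyceride, fell from 24.6 ± 3.82 to 15.5 ± 2.16 FPKM (-0.63, limma adjusted p 0.0159), a call lost without Control replicate 2 (0.0558) and in replicates 1 and 3 alone (0.0863, the range over all alternatives being 0.0110 to 0.0863). Stra6, the retinol uptake receptor, did not pass at 2.41 ± 0.727 and 2.15 ± 0.0900 FPKM (limma adjusted p 0.704).

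Both tested genes of the list of other synthesis, clearance and carrier genes passed, 1 in each direction. Fabp5, the fatty acid binding protein that can carry retinoic acid, read 12.3, 11.2 and 11.7 FPKM in Control and 34.9, 35.3 and 27.6 FPKM with TGF-β1. It rose by 1.39 (SE 0.115, limma adjusted p 2.22e-04) with no overlap, alongside the higher Crabp2. Cyp1b1, a cytochrome P450 that can oxidise retinol and retinaldehyde, fell from 217 ± 28.6 to 97.9 ± 3.49 FPKM (-1.13, limma adjusted p 4.58e-04).

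Of 11 tested coregulators of nuclear receptors, 2 rose, 6 fell and 3 did not pass (median -0.31). The share that passed was 72.7%, beside 48.1% of all rows. Nrip1, a corepressor that is itself induced by retinoic acid in many cells, rose from 3.19 ± 0.314 to 10.4 ± 0.703 FPKM (1.45, limma adjusted p 1.14e-04). Among the coactivators Crebbp and Ncoa1 fell, Crebbp from 7.55 ± 0.248 to 4.31 ± 0.229 FPKM (-0.69, limma adjusted p 9.99e-04) and Ncoa1 from 4.62 ± 0.309 to 2.71 ± 0.179 FPKM (-0.60, limma adjusted p 0.00328). Genes of the corepressor complexes fell too, namely Ncor1 (-0.35), Tbl1xr1 (-0.49) and Tbl1x (-0.31). Their calls were lost under 9, 5 and 4 of 16 alternatives. Corepressor genes thus changed in both directions. Hdac3, the deacetylase of the corepressor complexes, had similar means of 55.9 ± 5.14 and 55.9 ± 5.34 FPKM (change 0.00076, 95% interval -0.25 to 0.26).

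Genes known to respond to retinoic acid in other cells went both ways. Of 13 tested, 5 rose, 5 fell and 3 did not pass, with a median change of -0.06. Of this list 76.9% passed, beside 48.1% of all rows. Bhlhe40, a transcription factor first described as a retinoic acid induced gene and also induced by many other signals, rose from 14.8 ± 3.17 to 114 ± 11.8 FPKM (2.88, SE 0.160, limma adjusted p 5.58e-05). Hoxa4 rose from 6.08 ± 1.16 to 27.0 ± 0.980 FPKM (1.99, limma adjusted p 8.59e-05), but it overlaps Hoxa3 and an antisense gene, and whether the counting used strand is not stated. Nrip1, described above, was also on this list. Hoxb5 fell from 22.8 ± 3.02 to 13.6 ± 3.18 FPKM (-0.71, limma adjusted p 0.0180), a call lost without Control replicate 1 (adjusted p 0.0586) or 3 (0.0569) or TGF-β1 replicate 1 (0.0596). An antisense gene overlaps Hoxb5. Hoxa5 was at 27.9 ± 3.85 and 33.6 ± 2.06 FPKM and did not pass (limma adjusted p 0.111). Dhrs3, Nrip1 and Stra6 stand in this list and in another of the 6.

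Under the minimum of 1 FPKM, 16 of the pathway genes have a row, and 3 passed in the fit without a minimum, where 11.7% of all rows under 1 FPKM passed. They are named after their values were seen. Ret, the receptor tyrosine kinase of ureteric bud growth that retinoic acid induces in the developing kidney, was listed at 0, 0 and 0.0237 FPKM in Control and at 0.350, 0.278 and 0.279 FPKM with TGF-β1 (change 0.37, limma adjusted p 0.00194). Rarres1 fell from 0.480, 0.161 and 0.412 FPKM, or 6, 2 and 5 fragments, to a listed 0 in every treated library (limma adjusted p 0.0196). Leaving out Control replicate 1 or 3, or any treated library, ended the call for Rarres1, with adjusted p-values of up to 0.0758. Aldh1a7, shown above beside Aldh1a1, fell as well (limma adjusted p 0.00670), from 17, 14 and 10 fragments to 4, 0 and 1, and in replicates 1 and 3 alone its adjusted p was 0.101.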

How the data were processed

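RNA-Seq values of 3 Control and 3 TGF-β1 libraries were used, with groups taken from the labels. After a read quality filter, the authors aligned reads to mm9 with TopHat (TopHat2 2.0.11 in the submitters' processing notes), and deposited FPKM values from Cufflinks, 1 row per named transcript. No scaling between libraries is stated. The 9 genes and the lists were chosen with earlier results of these data known.

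Differences were fitted with limma 3.58.1 in R 4.3.3 (mean-variance trend, two-sided, Benjamini-Hochberg over all rows) on log2(FPKM + 1), for 11898 rows with a mean of at least 1 FPKM. In simulated data (11898 rows, 50 genes changed at each size), 20%, 62%, 94% and 100% of genes changed by 0.5, 1, 2 and 4 on the log2 scale were recovered. Far fewer rows changed there than the 48.1% called in the data, which makes the adjusted threshold stricter. These percentages therefore do not give the recovery in the real comparison. The study's test was a count model, which FPKM does not allow.

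Depth was the value that made low FPKM values of single-transcript genes whole multiples of 1 fragment (200 nt assumed). From 99.4 to 99.8% of values came within 0.1 fragment of a whole number, against 27.4 to 30.0% after jittering. For genes with several transcripts it was 45.6 to 50.6%. Floors cover counting error only, whereas the limma intervals rest on the spread between libraries.

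Named genes were all 9 members, all other receptors, and in each other list up to 4 genes past the threshold with the largest change and the most abundant that did not pass. A few genes outside this rule, such as Dhrs3, Ncor1, Tbl1xr1 and Tbl1x, were named as well. Some genes that the rule or the marker lists hold are counted but not reported here. mm9 annotation was GENCODE M1. Promoter windows were RefSeq GRCm38.p6. Python 3.11.15, numpy 2.4.6, pandas 2.3.3 and matplotlib 3.10.9 were used.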

Additional observations from a re-analysis of the deposited data

How the results depend on the processing

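Directions and calls were recomputed under 16 alternatives: pseudocounts of 0.1 and 0.5, no minimum or one of 3 FPKM, 2 other scalings, no trend, the replicate number as a block, replicate 2 as a batch term, replicates 1 and 3 alone, and each library left out in turn. The number of rows called, 5721, ranged from 4195 to 5446 when libraries were left out. Of the other pathway genes, 26 passed, against 17 to 25 with libraries left out, and 18 fell, against 11 to 18. These fits had fewer samples, and the cause was not tested. Of 861 refitted values of single pathway genes, 66 lost the call and 13 gained one. No called direction turned.

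Replicate numbers are shared by the groups, but nothing says that they pair the samples. Deviations of same-numbered libraries from their group means had correlations across rows of 0.0921, 0.232 and 0.0853, and Control replicate 1 was nearer to TGF-β1 replicate 3 (0.117). All other differently numbered pairs were negative, at -0.194 to -0.0160. With the replicate block 5391 rows and 22 of the other pathway genes passed.

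Low genes are limited by depth. An FPKM of 0.15 is about 1 fragment of Crabp1, so that gene could not be compared.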
